A study of Mus musculus with 24 samples.

Results

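The interferon-stimulated genes followed here are a list of 45 genes that cells switch on when interferon reaches them, chosen by name and grouped by role, and described over the 4 diet and bacterial status groups of the study. On the array, 40 of the 45 had a probe set that names that gene alone, out of 19938 genes tested in all, and a gene with several such probe sets was read at the one with the highest mean. Isg15, Gbp2, Igtp and Irgm2 are read by probe sets that carry more than 1 gene symbol, and they are not analysed here; neither is Ifi44. RNA came from the epididymal white fat, the abdominal fat pad beside the testis, of 24 wild-type male C57Bl/6 mice, 1 array per mouse. The mice were 11 weeks old when they were put on diets with 45% of energy from fat, were fed for 11 weeks, and were fasted for 4 h before tissue was taken. Each of the 4 groups held 6 mice: conventional mice, which carry gut bacteria, on menhaden fish oil or on lard, and germ-free mice on fish oil or on lard. Strain, sex, genotype and a high-fat diet were common to all, and no group analysed here had a low-fat diet. Anything that differs between conventional and germ-free housing other than bacteria cannot be told apart from bacterial status. The comparisons address what the dietary fat changes with and without gut bacteria, and what gut bacteria change with each fat.

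Type I interferons, such as interferon beta, and type II interferon, which is interferon gamma, bind receptors on almost every cell and signal through JAK kinases to transcription factors. A complex that holds STAT2 and IRF9 binds interferon-stimulated response elements in the promoters of interferon-stimulated genes, and gamma-activated sites answer mainly to interferon gamma. Their products sense viral nucleic acid, block virus entry and replication, tag proteins with ISG15, attack vacuoles that hold pathogens, cut antigens for display to T cells and attract lymphocytes. In fat, macrophages, lymphocytes and adipocytes can all respond to interferon, and the set is often studied as a readout of tissue inflammation in obesity.

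Values are log2 signals made by the RMA method, so a difference of 1 is a doubling, and levels are compared between mice, not between genes. The array medians lay between 7.085 and 7.198, and correlations between arrays of a group ran from 0.979 to 0.995. The medians differed by group, from 7.17 to 7.198 in fish oil-fed and 7.085 to 7.145 in lard-fed germ-free mice. In conventional mice they were 7.1 to 7.131 with fish oil and 7.085 to 7.177 with lard. Some arrays stood apart. Lard-fed conventional mice 5 and 6 had the highest mean of 12 macrophage markers in their group, 11.10 in both against 10.22 to 10.54, and the lowest mean of 9 adipocyte markers. Lard-fed germ-free mice 2, 4 and 5 had the highest mean of 12 intestinal epithelium markers, 6.63, 10.09 and 6.77 against 6.16 or less in the other mice of the group. The mean of 15 liver markers was 8.98 ± 0.54 in fish oil-fed germ-free mice (SD, n = 6) against at most 7.41 as the mean of any other group, and albumin (Alb), the main liver plasma protein, ran from 11.70 to 12.88 there. Adiponectin (Adipoq), the adipocyte hormone that defines fat tissue here, was between 12.60 and 13.75 in all mice, and changed with lard by -0.46 ± 0.12 in conventional (limma adjusted p = 0.00522) and -0.47 ± 0.12 in germ-free mice (adjusted p = 0.00288). In bulk tissue, fewer cells of a type and less RNA per cell cannot be told apart, and nothing in the labels says whether mice of a group shared a cage, so p-values measure the spread between these mice.

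Lard went with higher interferon-stimulated genes in conventional mice and with a mixed pattern in germ-free mice. A gene is counted as higher or lower at an adjusted p under 0.05 in limma, adjusted over all genes tested. In conventional mice 24 of the 40 measured genes (60%) were higher with lard than with fish oil, against 15.4% of all genes tested. In limma 0 were lower, against 15.6%, and 1, Gbp3, was lower at an unadjusted p under 0.05. The median change was 0.32 where that of all genes was -0.04. Without gut bacteria 13 (32.5%) were higher with lard, against 20.4% of all genes, and 8 (20%) were lower, against 27.1%, with a median change of 0.13 against -0.08. The conventional share is thus well above that of all genes, while the 2 germ-free shares are nearer to it. When every array was centred on its median, the germ-free counts were 16 higher and 5 lower, and those of all genes turned from 4072 higher and 5396 lower to 4808 and 3313. The same centring moved the counts of all genes from 3076 and 3102 to 2756 and 3769 for diet in conventional mice, from 1749 and 1491 to 1428 and 1666 for status under lard, from 1425 and 1039 to 2757 and 701 for status under fish oil, and from 561 and 874 to 312 and 1688 for the interaction, where the 40 genes gave 20 and 1, 14 and 1, 0 and 1, and 3 and 0. In 12 of the 40 genes (30%) the lard-fed and fish oil-fed conventional mice did not overlap, against 14.6% of all genes, and in 9 (22.5%) the germ-free mice did not, against 24.5%.

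With lard 12 of the 40 were higher in both bacterial states, namely Irf9, Stat2, Ddx58, Dhx58, Ifit2, Oas1a, Oasl1, Mx1, Rsad2, Usp18, Tap1 and Ubd. With the liver marker mean as a covariate the germ-free calls of 9 of these 12 were lost, all but those of Ddx58, Dhx58 and Ubd: the change was 0.15 for Irf9, 0.07 for Stat2, 0.00 for Mx1, 0.06 for Usp18 and -0.17 for Oas1a. Another 12 passed in conventional mice as higher with lard but not in germ-free mice: Irf7, Zbp1, Ifit1, Oas2, Mx2, Rtp4, Ube2l6, Parp9, Parp14, Irgm1, Psmb9 and Cxcl10. The 8 that lard lowered in the germ-free state, Irf1, Xaf1, Ifitm1, Ifitm2, Bst2, Gbp3, Psmb8 and Cxcl9, did not pass in conventional mice. Gbp7 passed as higher in germ-free mice alone, and Ifih1, Ifit3, Oas3, Oasl2, Ifitm3, Ifitm6 and Iigp1 passed in neither. Passing in one state and not in the other is not itself a difference between states; that is tested by the interaction, the change with lard in conventional mice minus that in germ-free mice. The interaction was positive for 35 of the 40 genes, against 11461 of 19938 genes in all, and passed the test for 4 genes, Zbp1, Psmb8, Psmb9 and Cxcl10 (2.81% of all genes passed in that direction), and for 0 in the other direction in limma (4.38% of all genes). At an unadjusted p under 0.05 it held for 18 of the 40, 17 positive and Gbp7 negative, against 22.2% of all genes.

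**Figure D1:**
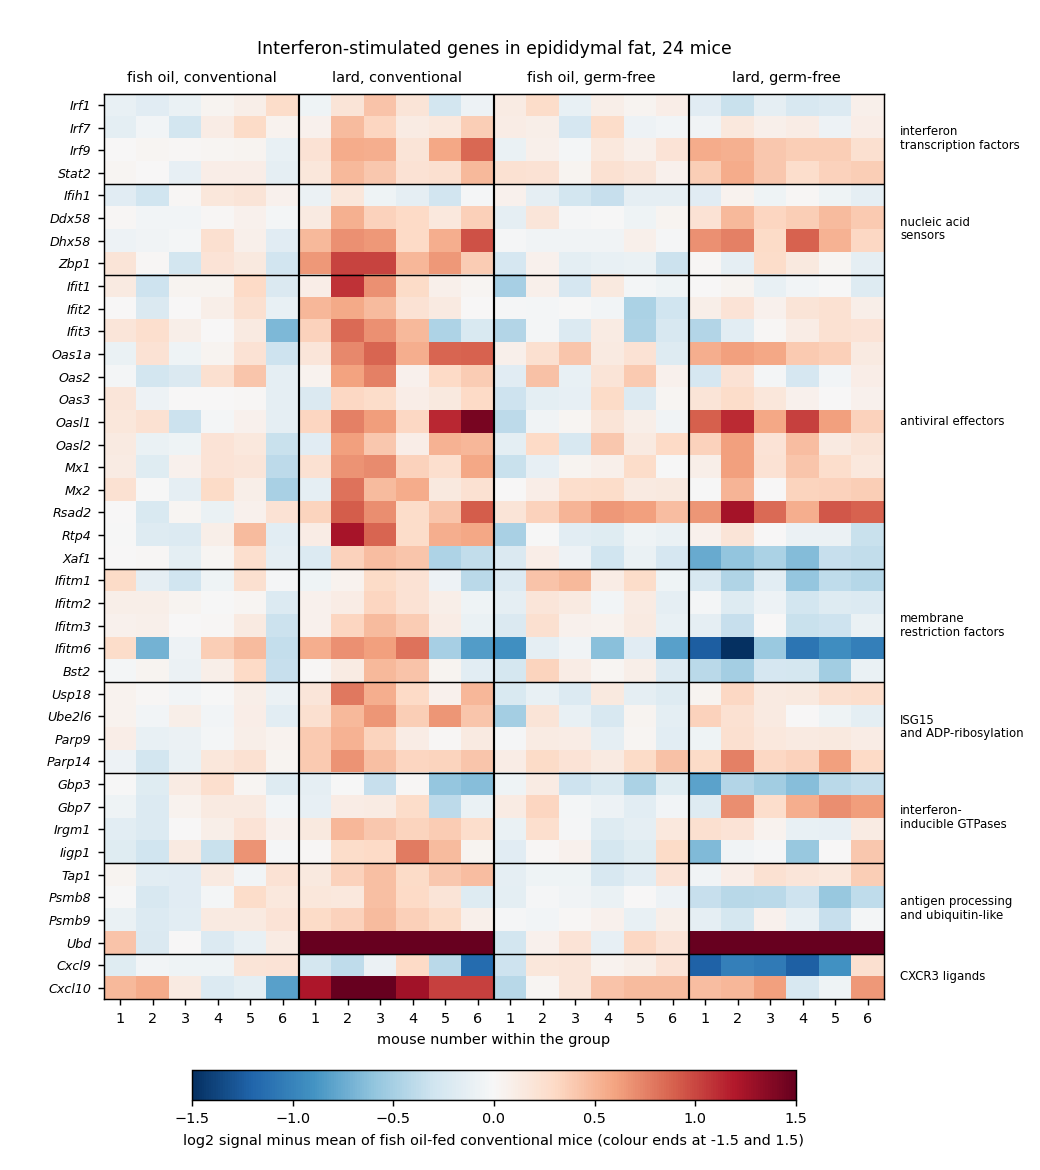
Log2 signal of the 40 measured genes (rows, by role) in each of the 24 mice (columns, by group and mouse number), shown as the difference from the mean of the 6 fish oil-fed conventional mice. The lard-fed conventional block is red over most rows, the lard-fed germ-free block is red for Ubd, Oasl1, Dhx58 and Rsad2 and blue for the membrane restriction factors, Xaf1 and Cxcl9, and colours stop at differences of 1.5.

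**Figure D2:**
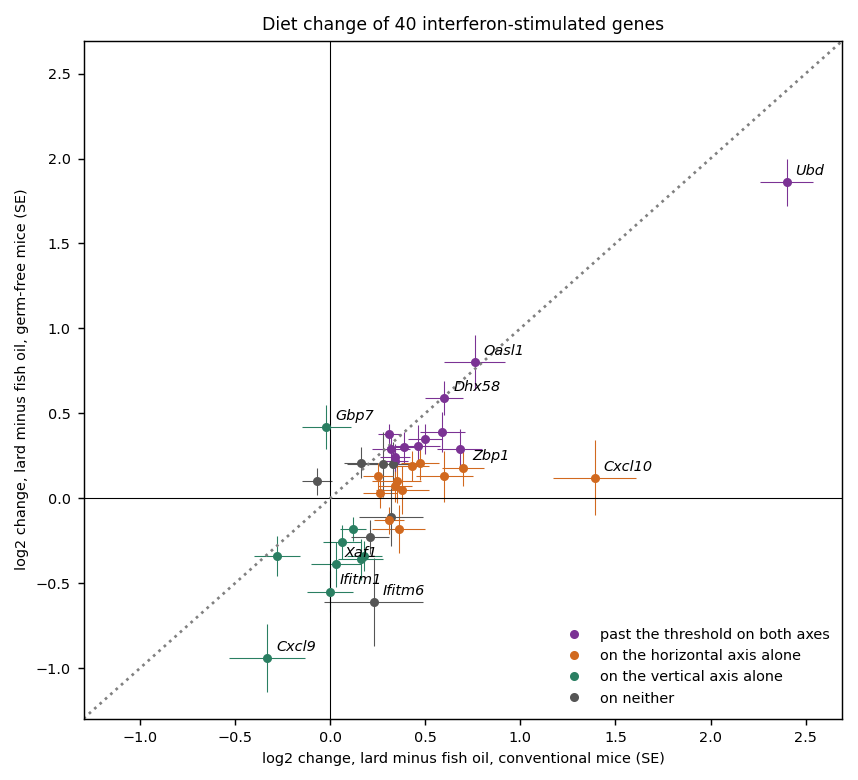
Change with lard (lard minus fish oil, log2, with standard errors) in conventional mice (horizontal) and in germ-free mice (vertical), 1 point per gene and 6 mice per group, coloured by which changes passed an adjusted p of 0.05; the axes share no mouse. Ubd (2.40 and 1.86) lies far from the rest near the diagonal, Cxcl10 (1.39 and 0.12) far below it.

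Bacterial status went with these genes under lard and hardly under fish oil. Among lard-fed mice 16 of the 40 (40%) were higher in conventional than in germ-free mice, against 8.77% of all genes, and 1, Gbp7, was lower (2.5%, against 7.48%); the median difference was 0.24 where that of all genes was 0.02. Among fish oil-fed mice 0 were higher in limma, against 7.15% of all genes, and 1, Rsad2, was lower (2.5%, against 5.21%), with a median difference of 0.00 against -0.01. There, 3 of the 40 (Parp14, Rsad2 and Stat2), all lower in conventional mice, had an unadjusted p under 0.05, against 26.3% of all genes in either direction. Without fish oil-fed conventional mouse 5 Parp14 passed as well (-0.29, adjusted p = 0.0499), which made 2 lower. The mean over the 40 genes was 8.94 ± 0.16 in lard-fed conventional mice, 8.66 ± 0.05 in lard-fed germ-free mice, and 8.57 ± 0.11 and 8.57 ± 0.09 in fish oil-fed conventional and germ-free mice (SD, n = 6 each). Lard-fed conventional mice also varied most among themselves: the median SD of the 40 genes was 0.25 there and 0.16 to 0.18 in the other groups. Over all genes too it was largest there, at 0.15 against 0.12 to 0.13. Mice 2 and 3 of that group held the highest value of the group for 15 and 12 of the 40 genes, and mouse 1 the lowest for 14. Larger counts occurred elsewhere: fish oil-fed conventional mouse 5 was highest for 21, and fish oil-fed germ-free mouse 1 lowest for 22. The diet comparison in conventional mice and the status comparison under lard share the lard-fed conventional mice, so a gene high in those mice counts in both.

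Under lard, leaving out germ-free mice 2, 4 and 5, with high intestinal markers, left 2 genes higher, Zbp1 and Psmb8, and 0 lower. That fit rests on 3 mice in the group, and over all 19938 genes it called 83 higher and 94 lower in place of 1749 and 1491. Leaving out conventional mice 5 and 6, with high macrophage markers, left 22 higher and 0 lower, and over all genes it called 2574 higher and 2505 lower. Array weights, which trust arrays close to their group more, gave 25 higher, and 2634 of all genes. The call of Ifit1 was lost without any of lard-fed conventional mice 2, 3 and 4 or of the 6 lard-fed germ-free mice. That of Oas2 was lost without conventional mouse 2, 3 or 6 or germ-free mouse 1, 3, 4 or 5, and that of Ifitm1 without conventional mouse 1, 2, 3 or 4 or germ-free mouse 2, 4, 5 or 6. That of Irgm1 was lost without conventional mouse 2, 3 or 4 or germ-free mouse 4 or 5, and that of Ubd without conventional mouse 1 or 3.

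**Figure D3:**
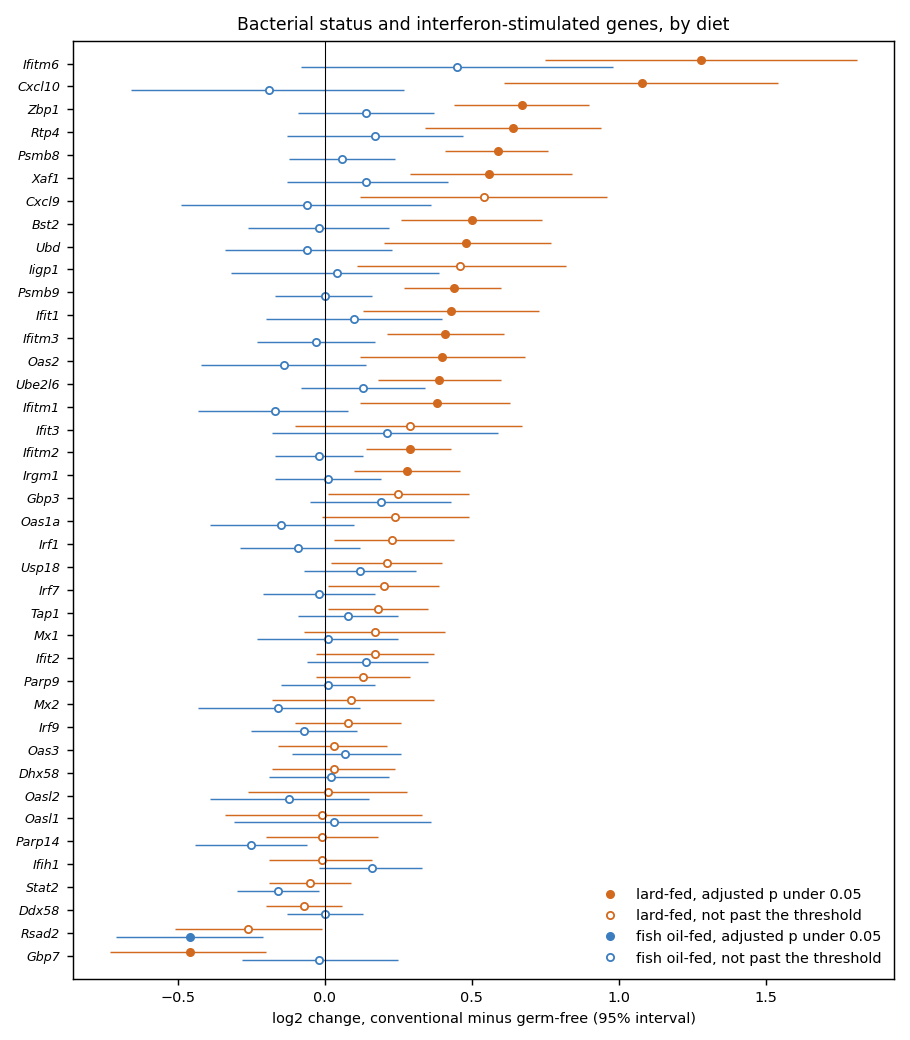
Conventional minus germ-free difference (log2, with 95% interval) of each of the 40 genes in lard-fed (orange) and fish oil-fed mice (blue), 6 mice per group, filled where the adjusted p was under 0.05. The 16 filled orange points on the right run from Irgm1 at 0.28 to Ifitm6 at 1.28, and the filled points on the left are Gbp7 with lard (-0.46) and Rsad2 with fish oil (-0.46).

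RefSeq promoter windows, from 250 bases before to 50 bases after each gene's start, were at hand for 35 of the 45 listed genes on build GRCm38.p6. They were searched on both strands for the core of the interferon-stimulated response element, spelled GAAA, any 2 bases, GAAA, and for the gamma-activated site, spelled TTC, any 3 bases, GAA. The first was in 19 of the 35 genes (54.3%) against 3.99% of the 27025 genes of the table, and the second in 10 (28.6%) against 9.55%. A match is a stretch of letters, not a site shown to be bound. Of the 15 genes with a window that were higher with lard in conventional mice 7 held the first motif, and of the 15 measured genes with a window that did not pass 8 did. The promoters below belong to genes the results turn on, and capitals mark the matches in either direction. Cxcl10, chr5:92348890-92349139, minus strand, the chemokine with the largest interaction, has 1 response element match, which begins 213 bases before the start, and Ifit1, chr19:34640739-34640888, plus strand, a classical target, has 2, at 104 and 85 bases before it. Oas1a, chr5:120907526-120907675, minus strand, has 2 that overlap each other, at 20 and 14 bases before the start, and a gamma-activated site match at 98. Bst2, chr8:71537473-71537622, minus strand, one of the genes that differed by bacterial status under lard, has 2 overlapping response element matches at 130 and 124 bases and a gamma-activated site match at 136 that overlaps the first. Ubd, chr17:37193742-37193891, plus strand, the gene with the largest change with lard, and the stretch between the starts of Psmb9 and Tap1, chr17:34187331-34187555, plus strand, which those neighbours share as a promoter running both ways, hold neither motif in the letters shown.
Cxcl10: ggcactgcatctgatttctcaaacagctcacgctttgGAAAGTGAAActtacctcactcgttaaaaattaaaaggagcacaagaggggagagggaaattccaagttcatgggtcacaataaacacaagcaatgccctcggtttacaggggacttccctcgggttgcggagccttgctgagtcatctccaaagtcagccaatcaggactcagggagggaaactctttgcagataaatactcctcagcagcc
Ifit1: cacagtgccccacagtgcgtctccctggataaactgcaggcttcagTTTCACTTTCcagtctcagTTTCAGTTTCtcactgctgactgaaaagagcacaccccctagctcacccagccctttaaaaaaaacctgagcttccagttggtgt
Oas1a: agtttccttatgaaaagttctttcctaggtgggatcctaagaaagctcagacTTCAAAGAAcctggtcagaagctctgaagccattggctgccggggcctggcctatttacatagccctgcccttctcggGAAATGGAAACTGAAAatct
Bst2: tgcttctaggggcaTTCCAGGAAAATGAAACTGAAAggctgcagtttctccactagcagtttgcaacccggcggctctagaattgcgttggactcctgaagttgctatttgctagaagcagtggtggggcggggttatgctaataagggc
Ubd: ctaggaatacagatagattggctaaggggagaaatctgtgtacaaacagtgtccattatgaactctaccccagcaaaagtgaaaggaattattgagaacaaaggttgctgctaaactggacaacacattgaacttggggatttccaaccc
Psmb9 and Tap1: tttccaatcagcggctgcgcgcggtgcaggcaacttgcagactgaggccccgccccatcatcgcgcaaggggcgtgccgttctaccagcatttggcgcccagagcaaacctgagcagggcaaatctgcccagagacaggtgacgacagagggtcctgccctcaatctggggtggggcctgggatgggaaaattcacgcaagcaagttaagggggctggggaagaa

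The transcription factors that carry the interferon signal to promoters changed mainly with diet: lard raised 3 of the 4 in conventional mice, and raised 2 and lowered 1 in germ-free mice. Of all genes lard raised 15.4% in conventional mice, and raised 20.4% and lowered 27.1% in germ-free mice. Irf9, a DNA-binding factor that works with STAT2, had a lowest, median and highest signal of 8.72, 8.85 and 8.87 in fish oil-fed and 9.02, 9.39 and 9.69 in lard-fed conventional mice, and of 8.73, 8.91 and 9.04 in fish oil-fed and 9.07, 9.22 and 9.39 in lard-fed germ-free mice. All 6 lard-fed mice lay above all 6 fish oil-fed mice under each bacterial state. The change was 0.50 ± 0.09 (SE; limma adjusted p = 0.0001) in conventional and 0.35 ± 0.09 (adjusted p = 0.0024) in germ-free mice. Stat2, its partner, did not overlap between diets either and changed by 0.34 ± 0.07 (adjusted p = 0.000362) and 0.22 ± 0.07 (adjusted p = 0.00853). Irf7, the factor that amplifies interferon alpha production, was higher by 0.26 ± 0.09 in conventional mice (adjusted p = 0.0367), a call lost without fish oil-fed mouse 1, 2 or 3 or lard-fed mouse 2, 3 or 6, and changed by 0.03 ± 0.09 in germ-free mice (adjusted p = 0.767). Irf1, a target of interferon gamma, went the other way in germ-free mice, by -0.26 ± 0.10 (adjusted p = 0.0354), and by 0.06 ± 0.10 in conventional mice (adjusted p = 0.675). A second, dimmer Irf1 probe set gave -0.49 ± 0.09 (adjusted p = 0.000128) and -0.26 ± 0.09 (adjusted p = 0.0291), so that the probe sets differ in sign in conventional mice, and the germ-free call of the first was lost without fish oil-fed mouse 1, 2, 4 or 6 or lard-fed mouse 1, 2, 4 or 5. Differences by bacterial status, from -0.05 to 0.23 under lard and from -0.16 to -0.02 under fish oil, did not pass, and neither did the interactions, from 0.11 to 0.32.

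Sensors of viral nucleic acid split between diet and bacterial status. Ddx58, which encodes the RNA sensor RIG-I, was higher with lard by 0.31 ± 0.06 in conventional mice (limma adjusted p = 0.000667) and by 0.38 ± 0.06 in germ-free mice (adjusted p = 5.6e-05). Dhx58, which encodes LGP2, a regulator of that pathway, ran from 7.09 to 7.50 with fish oil and from 7.56 to 8.21 with lard in conventional mice, and from 7.21 to 7.34 and from 7.55 to 8.15 in germ-free mice, with medians of 7.22, 7.86, 7.23 and 7.86. The ranges did not overlap under either state, and the changes were 0.60 ± 0.10 (1.52-fold, adjusted p = 5.3e-05) and 0.59 ± 0.10 (1.51-fold, adjusted p = 4.8e-05), with an interaction of 0.01 ± 0.14. Ifih1, the RNA sensor MDA5, changed by -0.07 ± 0.08 and 0.10 ± 0.08 and passed no comparison.

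Zbp1, a sensor of left-handed nucleic acid that can start cell death, was high in one group only. Its lowest, median and highest signals were 8.46, 8.73 and 9.09 in lard-fed conventional mice, against 7.94, 8.11 and 8.36 in lard-fed germ-free mice, 7.79, 8.16 and 8.28 in fish oil-fed conventional mice and 7.76, 7.95 and 8.15 in fish oil-fed germ-free mice. The lard-fed conventional mice overlapped none of the other groups. The change with lard was 0.70 ± 0.11 in conventional mice (1.63-fold, limma adjusted p = 3.2e-05) and 0.18 ± 0.11 in germ-free mice (adjusted p = 0.188), and bacterial status made a difference of 0.67 ± 0.11 under lard (adjusted p = 0.000504) and 0.14 ± 0.11 under fish oil (adjusted p = 0.456). The interaction of 0.52 ± 0.16 passed narrowly (adjusted p = 0.0431). It missed the threshold with each array centred on its median (0.44, adjusted p = 0.0801), and when any of 15 single mice was left out: fish oil-fed conventional mouse 2, 3 or 6, fish oil-fed germ-free mouse 2, 3, 4 or 5, lard-fed conventional mouse 2, 3 or 5, or lard-fed germ-free mouse 1, 2, 4, 5 or 6 (highest adjusted p 0.0856).

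Antiviral effectors, which degrade viral RNA or stop its translation and packaging, made up the largest role group, with 13 measured genes. With lard 9 of the 13 were higher in conventional mice and 5 in germ-free mice, where Xaf1 was lower. Of all genes 15.4% and 20.4% were higher, and 27.1% were lower in germ-free mice. Oasl1, of the oligoadenylate synthetase family and a brake on Irf7 translation, ran from 7.15 to 7.70 with fish oil and from 7.78 to 8.89 with lard in conventional mice, with medians of 7.49 and 8.16. In germ-free mice it ran from 7.08 to 7.66 and from 7.82 to 8.59, with medians of 7.46 and 8.22. Neither pair of ranges overlapped, and the changes of 0.76 ± 0.16 (1.70-fold, limma adjusted p = 0.000723) and 0.80 ± 0.16 (1.74-fold, adjusted p = 0.00034) were alike in size, with an interaction of -0.03 ± 0.23. Oas1a, which makes the messenger that activates RNase L, was higher by 0.68 ± 0.12 in conventional mice (adjusted p = 0.000101) and by 0.29 ± 0.12 in germ-free mice (adjusted p = 0.049), the second call being lost without any 1 of 10 of the 12 germ-free mice (all but fish oil-fed mouse 3 and lard-fed mouse 6).

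Rsad2, or viperin, which makes a chain-ending nucleotide against viral polymerases, was the gene of the set that differed by bacterial status under fish oil. Its lowest, median and highest signals were 7.38, 7.63 and 7.83 in conventional and 7.80, 8.09 and 8.26 in germ-free mice fed fish oil, and 7.89, 8.17 and 8.52 in conventional and 8.15, 8.48 and 8.86 in germ-free mice fed lard. The fish oil-fed conventional mice were lowest and overlapped the germ-free mice slightly. Rsad2 was lower in conventional mice by 0.46 ± 0.12 with fish oil, as -0.46 in limma (adjusted p = 0.0128), and the difference was -0.26 ± 0.12 with lard (adjusted p = 0.153). The change with lard was 0.59 ± 0.12 (adjusted p = 0.000461) in conventional and 0.39 ± 0.12 (adjusted p = 0.0101) in germ-free mice. Fitted with the liver marker mean as a covariate, the fish oil difference was -0.62 (adjusted p = 0.0552).

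Ifit1, which binds viral RNA lacking the host cap, ran from 7.94 to 8.99 in lard-fed conventional mice, with a median of 8.11, and its ranges overlapped between all groups. Mice 2 and 3 of that group, at 8.99 and 8.60, lay above the other 4 mice, which reached 8.20 at most. Its change with lard of 0.38 ± 0.14 in conventional mice (limma adjusted p = 0.0475) was lost without fish oil-fed mouse 2, 3, 4 or 6 or lard-fed mouse 2, 3 or 4. The changes of Oas2 (0.36 ± 0.14, adjusted p = 0.0444) and Mx2 (0.35 ± 0.13, adjusted p = 0.0464) were as close to the threshold. That of Oas2 was lost without fish oil-fed mouse 1, 2, 3 or 6 or lard-fed mouse 2, 3, 5 or 6, and that of Mx2 without fish oil-fed mouse 2, 3, 5 or 6 or lard-fed mouse 2, 3, 4 or 6. Rtp4, a negative regulator of type I interferon signalling, was higher by 0.60 ± 0.15 with lard in conventional mice (adjusted p = 0.00249) and by 0.64 ± 0.15 in conventional over germ-free mice under lard (adjusted p = 0.00364), again highest in mice 2 (10.04) and 3. Mx1, of the dynamin-like GTPase family, rose in limma by 0.46 ± 0.12 in conventional (adjusted p = 0.00322) and 0.31 ± 0.12 in germ-free mice (adjusted p = 0.0339). The second call was lost without fish oil-fed mouse 1 or 2 or lard-fed mouse 2 or 4. Ifit2 rose by 0.32 ± 0.10 (adjusted p = 0.0145) and 0.29 ± 0.10 (adjusted p = 0.0172), the second lost without fish oil-fed mouse 5. Xaf1, which promotes cell death, was lower with lard in germ-free mice by -0.39 ± 0.13 (adjusted p = 0.0204; lost without lard-fed mouse 1) and higher in conventional than germ-free mice under lard by 0.56 ± 0.13 (adjusted p = 0.00523). Ifit3, Oas3 and Oasl2 passed no comparison, with changes with lard of 0.28, 0.16 and 0.33 in conventional mice; these families hold similar sequences, and whether probes of one gene read RNA of another was not tested.

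**Figure D4:**
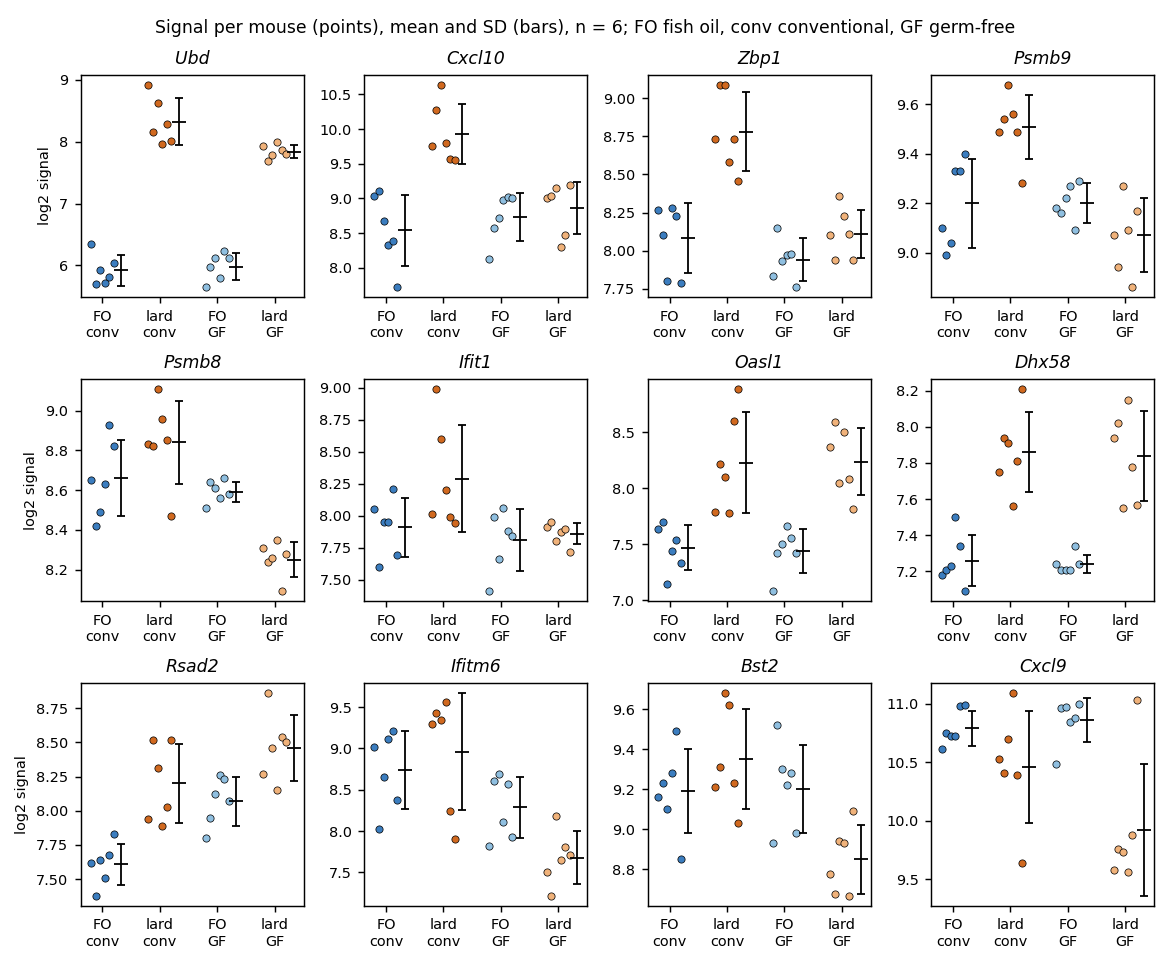
Log2 signal per mouse (points), with mean and SD (bars), n = 6 mice per group, for 12 of the genes. Ubd, Oasl1 and Dhx58 are high in both lard-fed groups, Cxcl10 and Zbp1 in lard-fed conventional mice alone, and Ifitm6, Bst2 and Psmb8 are lowest in lard-fed germ-free mice.

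Membrane restriction factors, which hold viruses back at entry or at release, differed by bacterial status under lard. In conventional mice 0 of the 5 passed the test for diet in limma (changes of 0.00 to 0.23, with 1 at an unadjusted p under 0.05). Of all genes 15.4% were higher and 15.6% lower there. In germ-free mice 3, Ifitm1, Ifitm2 and Bst2, were lower with lard, against 27.1% of all genes. Under lard all 5 were higher in conventional than in germ-free mice, against 8.77% of all genes. Bst2, or tetherin, which ties budding virions to the cell, had a lowest, median and highest signal of 9.03, 9.27 and 9.68 in lard-fed conventional and 8.67, 8.86 and 9.09 in lard-fed germ-free mice. With fish oil it was 8.85, 9.19 and 9.49 in conventional and 8.93, 9.25 and 9.52 in germ-free mice. The lard-fed germ-free mice were the low group, with a small overlap with the others. The difference by status was 0.50 ± 0.12 under lard (1.41-fold, limma adjusted p = 0.00493) and -0.02 ± 0.12 under fish oil (adjusted p = 0.942), and the change with lard in germ-free mice was -0.36 ± 0.12 (adjusted p = 0.016).

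Ifitm6, a member of the interferon-induced transmembrane family, had the largest status difference of the set under lard. Its signals were 7.90, 9.32 and 9.56 in lard-fed conventional and 7.22, 7.68 and 8.18 in lard-fed germ-free mice, as lowest, median and highest. The former split into mice 1 to 4, from 9.29 to 9.56, and mice 5 and 6, at 8.24 and 7.90, of which mouse 6 lies within the germ-free range. Mice 5 and 6 are those with the highest macrophage marker means. The difference was 1.28 ± 0.26 (2.43-fold, limma adjusted p = 0.00166). Ifitm1, Ifitm2 and Ifitm3, which stiffen endosomal membranes against virus fusion, differed by 0.38 ± 0.12 (adjusted p = 0.0387), 0.29 ± 0.07 (adjusted p = 0.00706) and 0.41 ± 0.10 (adjusted p = 0.00552). In germ-free mice Ifitm1 was lower with lard by -0.55 ± 0.12 (adjusted p = 0.000988) and Ifitm2 by -0.18 ± 0.07 (adjusted p = 0.0361), the second lost without fish oil-fed mouse 2, 3 or 5 or lard-fed mouse 2, 4, 5 or 6. The second Ifitm1 probe set gave -0.43 ± 0.13 and the other Ifitm2 probe sets -0.16 ± 0.08 and -0.29 ± 0.10, all in the same direction. The interaction was positive for all 5 genes, 0.31 to 0.83, with adjusted p-values from 0.0539 to 0.175. It passed the test for some of them without single mice. Without lard-fed conventional mouse 6, 10 genes of the 40 passed instead of 4, among them all 5 restriction factors and Ubd. Over all genes that fit called 808 positive interactions in place of 561. Without fish oil-fed germ-free mouse 1, 8 passed, and 568 of all genes. Without fish oil-fed conventional mouse 5, fish oil-fed germ-free mouse 6 or lard-fed conventional mouse 1, 7 passed, the first 4 genes each time. Over all genes these fits called 438, 502 and 714 positive interactions, in that order.

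Genes of ISG15 conjugation and ADP-ribosylation were all higher with lard in conventional mice, 4 of 4, against 15.4% of all genes. Usp18, the protease that removes ISG15 and shuts the type I receptor down, was higher by 0.39 ± 0.09 (limma adjusted p = 0.00142) in conventional and by 0.30 ± 0.09 (adjusted p = 0.00791) in germ-free mice. Ube2l6, which hands ISG15 to its targets, ran from 9.73 to 9.99 with fish oil and from 10.13 to 10.55 with lard in conventional mice, with medians of 9.90 and 10.35 and no overlap, a change of 0.47 ± 0.10 (adjusted p = 0.000739). In germ-free mice it changed by 0.21 ± 0.10 (adjusted p = 0.0838). Parp14 and Parp9, ADP-ribosyltransferases of macrophage and antiviral signalling, were higher by 0.43 ± 0.09 (adjusted p = 0.000757) and 0.25 ± 0.08 (adjusted p = 0.0167) in conventional mice, the latter lost without lard-fed mouse 2, and changed by 0.19 ± 0.09 and 0.13 ± 0.08 in germ-free mice.

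The measured interferon-inducible GTPases, which coat vacuoles that hold pathogens, had no common direction. Irgm1, the regulator of that family, was higher with lard by 0.34 ± 0.09 in conventional mice (limma adjusted p = 0.00393) and higher in conventional than germ-free mice under lard by 0.28 ± 0.09 (adjusted p = 0.0294). Of these GTPases Gbp7 alone was lower in conventional than in germ-free mice under lard. Its lowest, median and highest signals were 8.73, 9.51 and 9.62 in lard-fed germ-free mice and 8.53, 8.92 and 9.19 in lard-fed conventional mice, against medians of 8.92 and 8.89 in the fish oil-fed conventional and germ-free mice. In the lard-fed germ-free group mouse 1 was the lowest, within the range of the other groups. The change with lard in germ-free mice was 0.42 ± 0.13 (adjusted p = 0.00975), the status difference under lard -0.46 ± 0.13 (adjusted p = 0.0143), and the interaction -0.44 ± 0.18 (adjusted p = 0.142), which without that mouse was -0.57 and the 1 gene of the 40 to pass in the lower direction (adjusted p = 0.0217). Gbp3 was lower with lard by -0.34 ± 0.12 in germ-free mice (adjusted p = 0.0194; lost without fish oil-fed mouse 2 or lard-fed mouse 1, each of which left 5 of the 40 genes lower in place of 8) and by -0.28 ± 0.12 in conventional mice (adjusted p = 0.0678), where it passed as the 1 lower gene without lard-fed mouse 2 or 4 and with each array centred on its median. Iigp1 passed no comparison and differed by 0.46 ± 0.17 by status under lard (adjusted p = 0.0693).

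Ubd, which encodes FAT10, a ubiquitin-like tag that sends proteins to the proteasome, had by far the largest change with diet in the set. Its lowest, median and highest signals were 5.70, 5.87 and 6.35 with fish oil and 7.96, 8.22 and 8.92 with lard in conventional mice, and 5.65, 6.05 and 6.23 with fish oil and 7.68, 7.84 and 7.99 with lard in germ-free mice. Every lard-fed mouse lay more than a doubling above every fish oil-fed mouse. The change was 2.40 ± 0.14 in conventional mice (5.28-fold, limma adjusted p = 5.6e-11) and 1.86 ± 0.14 in germ-free mice (3.63-fold, adjusted p = 3.2e-09), with an interaction of 0.54 ± 0.20 (adjusted p = 0.0947). Leaving out 1 mouse at a time kept the changes between 2.28 and 2.49 and between 1.79 and 1.91. Among lard-fed mice Ubd was higher in conventional ones by 0.48 ± 0.14 (adjusted p = 0.0176).

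The antigen processing genes of the same role group gave 2 of the 4 genes past the threshold for the interaction. Psmb8 and Psmb9 encode catalytic subunits of the immunoproteasome, which cuts proteins for display on MHC class I. Psmb8 had a lowest, median and highest signal of 8.09, 8.27 and 8.35 in lard-fed germ-free mice, against 8.51, 8.60 and 8.66 in fish oil-fed germ-free, 8.42, 8.64 and 8.93 in fish oil-fed conventional and 8.47, 8.84 and 9.11 in lard-fed conventional mice. Lard-fed germ-free mice were below all the others with no overlap. The change with lard was thus -0.34 ± 0.09 in germ-free mice (limma adjusted p = 0.00259) and 0.18 ± 0.09 in conventional mice (adjusted p = 0.117), the status difference under lard 0.59 ± 0.09 (adjusted p = 0.000281), and the interaction 0.52 ± 0.12 (adjusted p = 0.0115). Psmb9 reached its threshold from the other side: lard-fed conventional mice were highest, at 9.28, 9.52 and 9.68, against 8.86, 9.08 and 9.27 in lard-fed germ-free mice. Its change with lard was 0.31 ± 0.08 in conventional (adjusted p = 0.0044) and -0.13 ± 0.08 in germ-free mice (adjusted p = 0.162), with an interaction of 0.44 ± 0.11 (adjusted p = 0.0193). Tap1, which pumps the cut peptides into the endoplasmic reticulum and starts beside Psmb9, was higher with lard under both states, by 0.34 ± 0.08 (adjusted p = 0.00219) and 0.24 ± 0.08 (adjusted p = 0.0184), with an interaction of 0.10 ± 0.12 (adjusted p = 0.664).

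The CXCR3 ligands, which draw activated T cells and NK cells, moved apart. Cxcl10 had a lowest, median and highest signal of 9.56, 9.77 and 10.64 in lard-fed conventional mice, above every mouse of the other groups: 7.72, 8.53 and 9.10 in fish oil-fed conventional, 8.12, 8.85 and 9.02 in fish oil-fed germ-free and 8.30, 9.02 and 9.19 in lard-fed germ-free mice. The change with lard was 1.39 ± 0.22 in conventional mice (2.62-fold, limma adjusted p = 3.7e-05) and 0.12 ± 0.22 in germ-free mice (1.09-fold, adjusted p = 0.659), and the status difference 1.08 ± 0.22 under lard (2.11-fold, adjusted p = 0.00206) and -0.19 ± 0.22 under fish oil (adjusted p = 0.637). The interaction was 1.27 ± 0.32 (adjusted p = 0.0163) and stayed between 1.11 and 1.39, with the call kept, when single mice were left out. Without lard-fed germ-free mice 2, 4 and 5 none of the 4 interactions passed in limma. They were 1.01 for Cxcl10 (adjusted p = 0.156), 0.50 for Psmb8 (adjusted p = 0.0933), 0.34 for Psmb9 (adjusted p = 0.189) and 0.50 for Zbp1 (adjusted p = 0.199). Over all genes that fit, with fewer mice in the group, called 112 positive and 113 negative interactions in place of 561 and 874.

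Cxcl9, the ligand most dependent on interferon gamma, had signals of 10.48, 10.92 and 11.00 in fish oil-fed and 9.56, 9.74 and 11.03 in lard-fed germ-free mice. In the lard-fed group 5 mice lay below every fish oil-fed mouse, and mouse 6, at 11.03, lay above them all. The change was -0.94 ± 0.20 (limma adjusted p = 0.000698), or -1.16 without mouse 6. Without it the status difference under lard, 0.54 ± 0.20 over all mice (adjusted p = 0.075), was 0.76 (adjusted p = 0.00274), and the interaction, 0.60 ± 0.29 (adjusted p = 0.221), was 0.82 (adjusted p = 0.0223). That mouse also had the highest mean of 8 T cell markers, 7.21, and of 8 NK cell markers, 6.16, in its group; their part in the Cxcl9 value was not tested. Without lard-fed conventional mouse 6, the lowest of its group for Cxcl9, the status difference under lard passed too, at 0.70 (adjusted p = 0.00815). In conventional mice the change was -0.33 ± 0.20 (adjusted p = 0.233).

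The interferons themselves gave low signals, at which a rise may not be visible: their list mean was 5.90 to 6.29 per mouse, under the 40th percentile of the mean signal of all genes, 6.98. Of 16 measured interferon genes 0 were higher in limma in either diet comparison (0 also at an unadjusted p under 0.05). Lower with lard were 2 in the conventional and 8 in the germ-free state, against 15.6% and 27.1% of all genes, and the changes lay between -0.44 and 0.06. Interferon gamma (Ifng) was at 6.90 ± 0.10 with fish oil and 6.75 ± 0.12 with lard in conventional mice, and interferon beta (Ifnb1) at 5.42 ± 0.10 and 5.38 ± 0.14 (SD, n = 6). Of 15 measured receptor and proximal signalling genes 8 were higher and 1 was lower with lard in the conventional state, and 10 and 2 in the germ-free state. Of all genes 15.4% were higher and 15.6% lower in the former, and 20.4% and 27.1% in the latter. Among the higher were the receptor chains Ifnar2 (0.44 and 0.48) and Ifngr2 (0.57 and 0.50), the kinase Tyk2 (0.42 and 0.39), the phosphatase Ptpn6 (0.84 and 0.68) and the shared chain Il10rb (0.93 and 1.11). The receptor chain Ifnar1 was higher by 0.28 and 0.41, and Ifngr1 changed by 0.02 and -0.03 without passing. By bacterial status 0 of the 15 were higher and 2, Il10rb and Jak1, were lower in conventional mice under lard, against 8.77% and 7.48% of all genes.

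Genes of the pathways that sense nucleic acid upstream of interferon and regulate its production differed by diet as well, and some by bacterial status under fish oil. Of 19 measured, lard raised 13 and lowered 0 in conventional mice by limma, and raised 10 and lowered 1 in germ-free mice. Of all genes lard raised 15.4% and lowered 15.6% in conventional mice, and raised 20.4% and lowered 27.1% in germ-free mice. The largest changes were those of the transcription factors Irf5 (1.18 in conventional, 0.82 in germ-free mice) and Irf8 (1.14 and 0.70), the endosomal receptor chaperone Unc93b1 (1.05 and 0.70), the kinase Ikbke (0.99 and 0.89), the RNA receptor Tlr7 (0.94 and 1.02) and the DNA pathway adaptor Sting1 (0.81 and 0.81). By bacterial status 1 of the 19 was higher and 1 lower under lard, against 8.77% and 7.48% of all genes. Under fish oil 0 were higher and 4 lower in conventional mice, by limma, against 7.15% and 5.21%. A further list of 43 measured interferon-stimulated genes had 25 higher and 2 lower with lard in the conventional state and 21 higher and 11 lower in the germ-free state. The last of these counts is near the share of all genes lower there, 27.1%. The largest rises in conventional mice were those of the lysosomal reductase Ifi30 (1.60 and 0.98), the schlafen gene Slfn2 (1.17 and 0.57) and the nucleotide hydrolase Samhd1 (0.86 and 0.76). By status under lard 10 of the 43 were higher and 4 lower, and under fish oil 0 were higher and 5 lower. The median changes of that list, 0.29 and 0.17 with lard in conventional and germ-free mice and 0.09 by status under lard, stood near those of the 40 genes in the diet comparisons and below theirs in the last.

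Macrophage markers rose with lard as well, and none was higher in conventional than in germ-free mice. Of 12 markers lard raised 10 and lowered 1 in conventional mice, and raised 10 and lowered 2 in germ-free mice. By status, 0 were higher and 2 lower in conventional than in germ-free mice under lard and 0 and 5 under fish oil. For this list and those below, the shares of all genes were 15.4% higher and 15.6% lower with lard in conventional mice. They were 20.4% and 27.1% in germ-free mice. By status they were 8.77% and 7.48% under lard, and 7.15% and 5.21% under fish oil. Adgre1, which encodes a surface receptor that marks mouse macrophages, was higher with lard by 1.37 ± 0.21 in conventional mice (limma adjusted p = 2.3e-05) and by 1.76 ± 0.21 in germ-free mice (adjusted p = 9.5e-07). The list means per mouse were 9.55 to 10.10 in fish oil-fed and 10.22 to 11.10 in lard-fed conventional mice, and 9.84 to 10.45 and 10.66 to 11.25 in germ-free mice, with the highest group mean, 10.95 ± 0.21 (SD, n = 6), in lard-fed germ-free mice. Within the lard-fed conventional group mice 5 and 6, highest for macrophage markers, held the lowest value for 7 and 13 of the 40 genes and the highest for 1 and 6. Mouse 1, with a macrophage mean of 10.46, held the lowest for 14. Irf9 (9.41 and 9.69) and Oasl1 (8.60 and 8.89) were highest in mice 5 and 6, while Ifitm6 was lowest there. When both were left out, 26 of the 40 were higher with lard, and 2425 of all genes in place of 3076. Of 8 T cell markers 0 passed with diet in limma in either state (1 at an unadjusted p under 0.05, in conventional mice), and of 8 NK cell markers 1 was higher with lard in conventional mice. Under lard 1 T cell and 3 NK cell markers of 8 each were higher in conventional mice. Plasmacytoid dendritic cells make much type I interferon. Of 5 genes listed as their markers, lard raised 2 (Clec10a and Cox6a2) in the conventional state, and Siglech was not among them. In the germ-free state lard lowered 2 (Siglech and Ly6d), and 1 (Siglech) was higher by status under lard. The mean of the 5 genes, Clec10a included, was 7.56 ± 0.16 in lard-fed conventional mice and 7.32 to 7.36 in the other groups (SD, n = 6). Whether Clec10a marks only these cells in fat was not tested, so neither the 2 rises nor that mean shows more of them. Of 8 neutrophil markers 2 were higher and 3 lower with lard in conventional mice, 0 and 4 in germ-free mice, and 2 (S100a8 and Retnlg) were higher by status under lard. Of 9 adipocyte markers lard lowered 8 and raised 1 in conventional mice, and lowered 6 and raised 1 in germ-free mice. The part of all these cell types in the results was not tested.

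Liver markers differed between mice of a group. The mouse with the highest liver marker mean in its group held the lowest value of the group for 22 of the 40 genes in fish oil-fed germ-free mice (mouse 1, liver mean 9.64), for 17 in fish oil-fed conventional mice (mouse 6, 8.25), for 14 in lard-fed conventional mice (mouse 1, 8.31) and for 7 in lard-fed germ-free mice (mouse 4, 7.70). In that last group mouse 1, with the lowest liver mean (6.49), held the lowest value for more genes, 13. How often these mice were lowest over all genes was not counted, so a link particular to the 40 genes was not tested. Between groups, lard lowered 14 of the 15 liver markers in the germ-free state and 0 in the conventional state, by limma. Under fish oil 13 were lower in conventional than in germ-free mice, and 12 passed for the interaction, all in the higher direction. Of all genes 27.1% and 15.6% were lower in the 2 diet comparisons and 5.21% under fish oil, and 2.81% passed as higher for the interaction. With the liver marker mean as a covariate, lard raised 27 of the 40 interferon-stimulated genes in conventional mice and 3 in germ-free mice in place of 13 (Ddx58, Dhx58 and Ubd). The same fit called 3180 of all genes higher in conventional mice in place of 3076, and 2637 in germ-free mice in place of 4072. By status under lard 18 were higher, and 9 passed for the interaction, 2 of them (Zbp1 and Cxcl10) among the 4 above. Over all genes 2026 were higher by status under lard in place of 1749, and 941 interactions were positive in place of 561. The germ-free diet groups do not overlap in that mean, so that a liver part and a diet part of a change cannot be told apart there. The fish oil-fed groups barely meet in it, at 6.63 to 8.25 in conventional and 8.25 to 9.64 in germ-free mice. A liver part can thus hardly be told apart from status under fish oil, or from the interaction, which uses these mice.

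**Figure D5:**
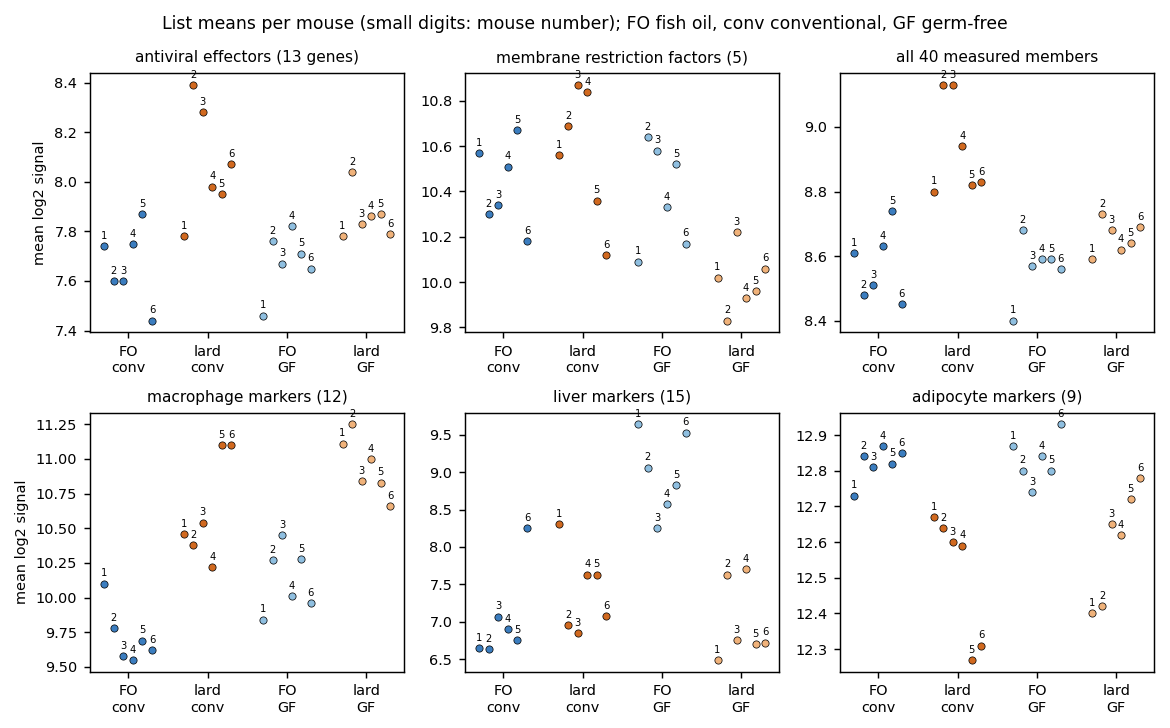
Mean log2 signal per mouse of 3 sets of interferon-stimulated genes and of the macrophage, liver and adipocyte marker lists, with each mouse's number. Lard-fed conventional mice 2 and 3 lead in antiviral effectors and in the mean of all 40 genes (9.13 each), mice 5 and 6 lead their group in macrophage markers (11.10 each), and liver markers are highest in fish oil-fed germ-free mice.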

How the data were processed

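The 24 arrays carried 250 ng of RNA per mouse. The authors deposited log2 signals, 1 per probe set and array, made with RMA (background correction, quantile normalization and summary of probes) per the submitters' processing notes; its version is not given in the sources used here, nor are scan dates. Of 35556 probe sets, 21789 had 1 gene symbol in the platform annotation, 1621 had several and 12146 none, and 21698 of the first were found by Entrez ID in RefSeq (GRCm38.p6). Only probe sets with 1 symbol were used, the highest-mean one per gene, with no filter on low values. All 24 arrays were fitted with 4 group means in limma 3.58.1 (lmFit, eBayes) under R 4.3.3, two-sided, with Benjamini-Hochberg adjustment over 19938 genes in each of 5 contrasts and a threshold of 0.05; the script was tested on simulated data. Tables and figures used python 3.11.15, numpy 2.4.6, pandas 2.3.3 and matplotlib 3.10.9.

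The members, the role groups and the lists of other genes were chosen with earlier results of these data known, so no test of a list was made and lists are described by counts and medians. All members are given singly or in a count of their role group; of other lists, up to 6 genes whose changes were largest among those that passed, and Ifng, Ifnb1, Ifnar1, Ifngr1, Alb, Adgre1 and Adipoq whatever their result. Alternatives were median centring, repeated quantile normalization, a filter at the 40th percentile of the mean signal, other uses of a gene's probe sets, array weights, trend and robust priors, a fit to the compared groups alone, mouse number as a block, and each mouse left out in turn. Chosen after seeing the data were fits that drop mice 5 and 6 (conventional, lard), fits that drop mice 2, 4 and 5 (germ-free, lard), and fits with the mean of the liver markers as a covariate. Precision is limited by the number of arrays, and RMA compresses low signals, which understates changes of dim genes.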

Additional observations from a re-analysis of the deposited data

Results flagged for a closer look

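Of 160 pairs of a gene and a group, 10 held 1 mouse farther from the other 5 than Dixon's 95% criterion allows, where chance gives about 1 in 20, or 8. Fish oil-fed conventional mouse 6 was low for Irf9 (8.72, others 8.83 to 8.87), Ifit3 (8.54, others 9.21 to 9.46), Ifitm2 (12.51, others 12.71 to 12.81) and Ifitm3 (12.59, others 12.92 to 13.05); it had the highest liver marker mean of its group, 8.25. Fish oil-fed germ-free mouse 1, likewise highest for liver markers (9.64), was low for Rtp4 (8.31, others 8.62 to 8.79) and Cxcl9 (10.48, others 10.84 to 11.00). In the same group mouse 5 was high for Dhx58 (7.34, others 7.21 to 7.24) and mouse 4 for Usp18 (8.04, others 7.66 to 7.78). Lard-fed conventional mouse 2 was high for Parp14 (9.31, others 8.96 to 9.09), and lard-fed germ-free mouse 6 for Cxcl9 (11.03, others 9.56 to 9.88).

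The effect of bacterial status differed between lard and fish oil for 4 genes by the interaction term in limma, at 0.52 for Zbp1, 0.52 for Psmb8, 0.44 for Psmb9 and 1.27 for Cxcl10.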

How the results depend on the processing

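Of the 24 genes higher with lard in conventional mice, 19 passed under every alternative in which they were tested. Mx1, among these, was left out by the filter on low signals and not tested there. Of the 21 calls in germ-free mice 14 passed under every alternative but the 3 chosen after seeing the data. Of those calls 5 (Ddx58, Dhx58, Ifitm1, Ubd and Cxcl9) passed under these 3 as well. Of the 17 status calls under lard 11 passed under the former and 2 (Zbp1 and Psmb8) under all, and of the 4 interactions 3 and 0. The direction of 1 called gene reversed: Oas1a with diet in germ-free mice was -0.17 (adjusted p = 0.434) with the liver marker mean as a covariate. Causes were not tested.

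Median centring gave 1 gene lower with lard in conventional mice and 5 lower in germ-free mice. A filter at the 40th percentile of the mean signal kept 37 of the 40 and gave 8 interactions. Over all genes it called 462 positive and 1055 negative interactions, in place of 561 and 874. Array weights gave 25 genes higher by status under lard, 2 lower under fish oil and 15 interactions. Over all genes they called 2634 higher by status under lard in place of 1749, and 1425 lower under fish oil in place of 1039. The interactions over all genes were then 1103 positive and 1423 negative. A fit of only the groups compared gave 0 lower by status under lard, against 897 of all genes in place of 1491. Without lard-fed conventional mice 5 and 6 there were 0 lower by status under lard and 13 interactions. Of all genes 2505 were then lower by status under lard, and the interactions were 1199 positive and 1511 negative. Without lard-fed germ-free mice 2, 4 and 5 there were 6 higher and 3 lower with lard in germ-free mice, 2 higher and 0 lower by status under lard, 2 lower under fish oil and 0 interactions. Over all genes that fit called 2891 higher and 2387 lower with lard in germ-free mice. It called 83 higher and 94 lower by status under lard, 1011 lower under fish oil, and 112 positive and 113 negative interactions. The liver covariate gave 3 higher with lard in germ-free mice, 2 lower by status under fish oil (Oas1a and Cxcl10, not Rsad2) and 9 interactions. Over all genes it called 2637 higher with lard in germ-free mice and 703 lower by status under fish oil. The interactions over all genes were then 941 positive and 1298 negative.

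Leaving out 1 mouse at a time gave 19 to 26 higher and 0 to 1 lower with lard in conventional mice, 11 to 14 higher and 5 to 10 lower in germ-free mice, 11 to 18 higher and 1 lower by status under lard, 0 higher and 1 to 2 lower under fish oil, and 3 to 10 positive and 0 to 1 negative interactions. Over all genes the interactions in these fits ran from 347 to 808 positive and from 514 to 1262 negative.

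With the mouse number as a replicate block there were 23 higher with lard in conventional mice, 13 higher and 8 lower in germ-free mice, 15 higher by status under lard and 5 interactions. Same-numbered mice did not deviate together: 9 of 36 pairs correlated above 0.1, from -0.497 to 0.351, with a mean of -0.0165, against 0.00441 for other pairs, so the numbers are taken as names.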
